A study of Mus musculus with 6 samples.

Results

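The 38 genes that encode the subunits and activators of the mouse proteasome were examined for Maf peaks and H3K27ac regions in adult skeletal muscle, out of 21829 protein-coding gene names. They were chosen by name, and earlier results of these data were known when the choice was made. They were the 7 alpha and 7 beta subunits of the 20S core and the 3 immunoproteasome subunits. The rest were 6 ATPases and 11 other subunits of the 19S particle, and 4 activators. Every one of the 38 names was found in the annotation (GENCODE M21, genome build GRCm38), with 86 distinct starts of protein-coding transcripts. ChIP-seq, which reads out the DNA fixed to a chosen protein, had been done on nuclei that were purified from the gastrocnemius and quadriceps of WT (wild-type) mice at 2 months of age. Antibodies were against Maf, a transcription factor studied here in fast muscle fibers, and against H3K27ac, a histone mark found at active promoters and enhancers. Each target had 2 biological replicates, and the 2 input samples were not analysed here. No sample carried a deletion or a treatment, so a peak is a place where Maf was found in normal muscle, not a response to it. How many mice gave each sample is not given in the sources used here.

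The proteasome is the barrel-shaped protease that degrades proteins tagged with ubiquitin. Its 20S core holds the peptide-cutting sites on the inner face of its beta rings, and the alpha rings form the gate through which a substrate enters. The 19S particle caps the core: the lid and the ubiquitin receptors take up the tagged protein and remove the tag, and a ring of ATPases unfolds it and threads it through the gate. In skeletal muscle this pathway carries out much of the turnover of contractile proteins, and it is known for its part in the loss of muscle mass during disuse and fasting. Proteasome genes are known to be transcribed together, through the factor Nfe2l1 and antioxidant response elements in their promoters. Maf proteins bind DNA through half-sites with the letters TGCTGA, and their full site overlaps in sequence with that element.

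The peak lists differed in size between the Maf samples. Maf replicate 1 held 74 peaks of 181 bp and replicate 2 held 5467 peaks of 281 bp, and 55 of the 74 overlapped a peak of replicate 2. The H3K27ac lists were of nearly equal size, with 44887 and 44987 regions. All 8 muscle fiber markers examined (such as Ckm, the muscle creatine kinase, and Acta1, skeletal muscle actin) had H3K27ac within 1 kb of a start in both samples, and 0 of 6 liver markers did. The 8 macrophage and leukocyte, 6 endothelial and 5 fibroblast markers were also marked in both samples. In replicate 2 a Maf peak lay over a start of the macrophage marker C1qa and 43 bp from a start of the fibroblast marker Col1a1. The cells in which a Maf peak arose therefore cannot be told apart. The lists hold positions with no read counts, so the depth behind a peak is unknown, and fewer cells of a type cannot be told apart from a weaker mark in each cell.

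Stretches under 4 Maf peaks of 3 proteasome genes are shown first, chosen after their letters were seen. They are the Psmc5 peak, which stood earliest in the list of the 10 peaks within 10 kb, the Psme4 peak nearest to a start, and both peaks of Psmc1, with and without Maf half-sites. Each is the central 120 bases of the peak. Capitals mark the Maf half-site TGCTGAC and its shorter form TGCTGA, the antioxidant response element core TGACNNNGC and the AP-1 site TGANTCA, on either strand, so that TGCTGA also reads as TCAGCA.
Psmc5 first intron (chr11:106256287-106256406, plus strand): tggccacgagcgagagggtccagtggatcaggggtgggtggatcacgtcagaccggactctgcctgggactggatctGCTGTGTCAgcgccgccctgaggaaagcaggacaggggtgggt
Psme4 intron peak nearest the start (chr11:30773170-30773289, plus strand): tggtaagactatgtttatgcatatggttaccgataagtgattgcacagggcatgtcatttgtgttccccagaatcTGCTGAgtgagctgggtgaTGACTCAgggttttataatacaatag
Psmc1 peak over the start (chr12:100110038-100110157, plus strand): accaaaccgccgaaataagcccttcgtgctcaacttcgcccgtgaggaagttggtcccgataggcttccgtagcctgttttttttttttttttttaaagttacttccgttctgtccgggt
Psmc1 intron peak (chr12:100116090-100116209, plus strand): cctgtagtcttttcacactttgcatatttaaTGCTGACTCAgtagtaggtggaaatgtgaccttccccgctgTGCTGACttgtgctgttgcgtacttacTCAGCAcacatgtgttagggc
The Psmc1 intron stretch had TGCTGAC at 2 places, at 1 of them overlapping an AP-1 site, and TGCTGA once more on the opposite strand. The Psme4 stretch had 1 TGCTGA and, further on, an AP-1 site. In Psmc5 the element core was read on the minus strand (GCTGTGTCA as printed). The stretch over the Psmc1 start had none of these letters.

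A Maf peak lay within 1 kb of a transcript start of 4 of the 38 genes (10.5%, 95% Clopper-Pearson interval 2.94 to 24.8%), compared with 4.93% of all protein-coding genes. With the 5′ end of each gene alone, or with basic transcripts alone, the count was 2, compared with 4.12% and 4.71% of all genes. The 4 genes were Psmc1 and Psmc5, ATPases of the 19S base, Psmd11, a scaffold subunit of the lid, and Psme4, which encodes the activator PA200. Within 10 kb the count was 8 (21.1%, 9.55 to 37.3%), against 11.0% of all genes. Within 50 kb it was 16 (42.1%, 26.3 to 59.2%), against 29.7%. Genes with H3K27ac at a promoter in both samples are the nearer comparison, since all 38 genes were marked there. Of these 12127 genes 8.48%, 17.2% and 40.8% had a Maf peak within 1, 10 and 50 kb, and all 3 values lay within the intervals of the proteasome genes. The intervals cover counting over genes only, and the genes were not tested as a set.

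**Figure D1:**
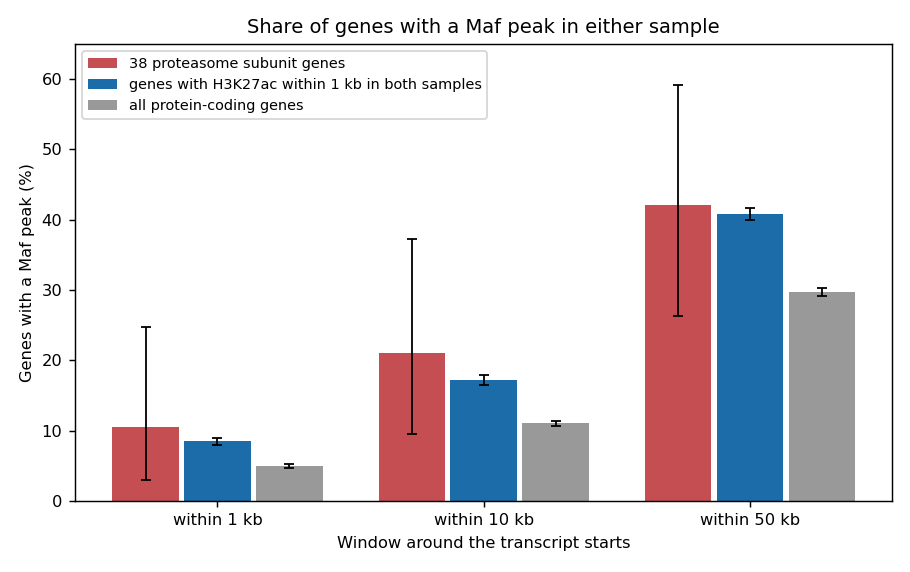
Share of genes (%, vertical axis) with a Maf peak of either sample within 1, 10 and 50 kb of a transcript start (horizontal axis), for the 38 proteasome subunit genes (red), the 12127 genes with H3K27ac within 1 kb of a start in both samples (blue) and all 21829 protein-coding genes (grey). Bars start at 0 and error bars are 95% Clopper-Pearson intervals; the red bars reach 10.5, 21.1 and 42.1%, and their error bars span the blue bars in all 3 windows.

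Every one of these Maf peaks came from replicate 2. In replicate 1, 0 of 38 genes had a peak in any of the windows (upper limit 9.25%), and over all genes its shares were 0.0229%, 0.119% and 0.573%. The replicate 1 peak nearest to any of the 38 genes lay 399352 bp from Psmd8. None of the 24 replicate 2 peaks within 50 kb of a proteasome gene overlapped a peak of replicate 1. The Maf results that follow therefore rest on 1 sample, with no replicate check.

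The peaks within 10 kb fell on the 19S particle in 6 of 17 genes and on the 20S core, immunoproteasome subunits included, in 1 of 17, beside 11.0% of all genes and 17.2% of genes marked in both samples. Of the 19S genes, 3 of the 6 ATPases (Psmc1, Psmc2 and Psmc5), 3 of the 8 lid genes (Psmd6, Psmd7 and Psmd11) and 0 of the 3 other base genes (Psmd1 and Psmd2, the large scaffolds, and Psmd4, a ubiquitin receptor) had one. In the core it was Psma3, 1 of the 7 alpha ring genes. The 7 constitutive beta genes and the 3 immunoproteasome genes had 0 within 10 kb, and among the 4 activators it was Psme4. These counts are small, and the difference between the particles was not tested. At 50 kb they stood at 9 of 17 for the 19S particle and 6 of 17 for the core, beside 29.7% of all and 40.8% of marked genes.

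**Figure D2:**
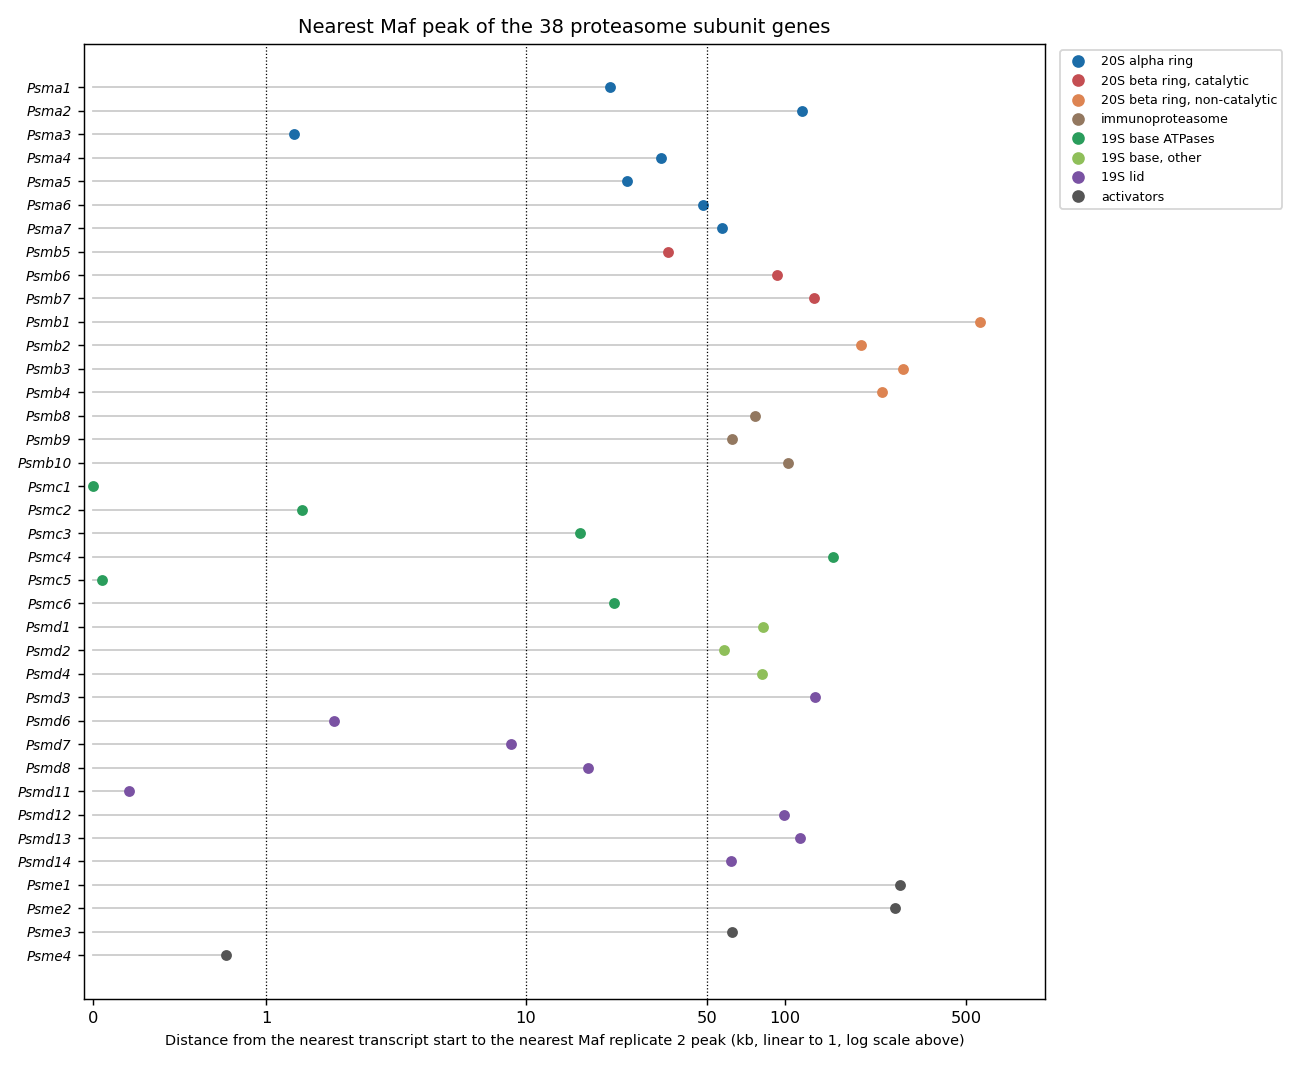
Distance in kb from the nearest transcript start of each of the 38 genes to the nearest Maf replicate 2 peak (horizontal axis, linear to 1 kb and logarithmic above), with 1 point per gene colored by role and dotted lines at 1, 10 and 50 kb. Points left of the 10 kb line are 8 genes, of which Psmc1 is at 0 bp, and the farthest is Psmb1 at 562173 bp.

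Psmc5 encodes the ATPase Rpt6. Its peak (chr11:106256207-106256487) began 53 bp downstream of the only annotated start, in an intron, and was number 294 of the 5467 in list order, the earliest of the 10 peaks within 10 kb. The lists are not stated to be sorted by strength, so this place is a position only. The start of Ftsj3, which encodes an RNA methyltransferase of ribosome assembly, lay head to head 75 bp away, and a start of Smarcd2 was also within 10 kb. The peak thus lies close to the starts of both Ftsj3 and Psmc5. H3K27ac covered it in both samples, from 1197 bp upstream to 982 bp downstream of the start in replicate 1 and from 1192 to 1813 bp in replicate 2.

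Psmc1 encodes Rpt2, another ATPase of the ring. It had 2 peaks: chr12:100109958-100110238, number 1739, which covered the start itself, and chr12:100116010-100116290, number 2885, 5856 bp downstream in an intron. The second is the one with several half-sites in the sequence above. Separate H3K27ac regions covered each peak in both samples, with a gap between them. No start of another protein-coding gene lay within 10 kb of either peak.

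The peak of Psmc2, the ATPase Rpt1, was number 443 (chr5:21786662-21786942). It lay 1379 bp downstream of the GENCODE start, in a coding exon. RefSeq lists 2 starts for Psmc2, and the peak covered 1 of them (distance 0 bp), so that whether this peak counts as a promoter peak depends on the annotation. Dnajc2, a ribosome-bound chaperone gene, starts head to head with Psmc2 at 32 bp. A single H3K27ac region of 3171 bp in replicate 1 and 3163 bp in replicate 2 spanned both starts and the Maf peak.

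Psme4 had 2 intronic peaks. The first (chr11:30773090-30773370, number 451) was 769 bp from an alternative start and 1364 bp from the 5′ end of the gene, and the second (chr11:30780230-30780510, number 2329) was 7909 bp from the same alternative start. Both were in H3K27ac in each sample. PA200, the product of Psme4, caps the core without ATP, and the gene was the only one of the 4 activators with a Maf peak within 50 kb. The other activators were farther, with Psme3 at 62453 bp, Psme2 at 264230 bp and Psme1 at 276768 bp.

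The 3 lid genes differed in where the peak lay. At Psmd11 it was 209 bp from an alternative start and 1481 bp from the 5′ end of the gene (chr11:80430096-80430376, number 3520, intron). At Psmd6 it was 1832 bp downstream of a start, also in an intron (chr14:14117994-14118274, number 2606). Both peaks were inside the promoter H3K27ac region in both samples. Psmd7, the partner of the deubiquitinase Psmd14 in the lid, had an intergenic peak 8783 bp upstream (chr8:107597247-107597527, number 5112). Of the 10 peaks it was the only one with no H3K27ac in either sample.

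Psma3, an alpha ring gene, had a peak in its own intron (chr12:70985335-70985615, number 2348). It was 1277 bp upstream of an alternative start, and 10652 bp from the start that carries the promoter H3K27ac, so it is within 10 kb only through the alternative start. A further H3K27ac region covered it in each sample. For all 10 peaks within 10 kb the proteasome gene was the gene with the nearest start. Their median list position was 2338, compared with 2412 for the 2168 peaks within 10 kb of any start, and 9 of 10 overlapped H3K27ac, compared with 82.7% of those peaks.

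**Figure D3:**
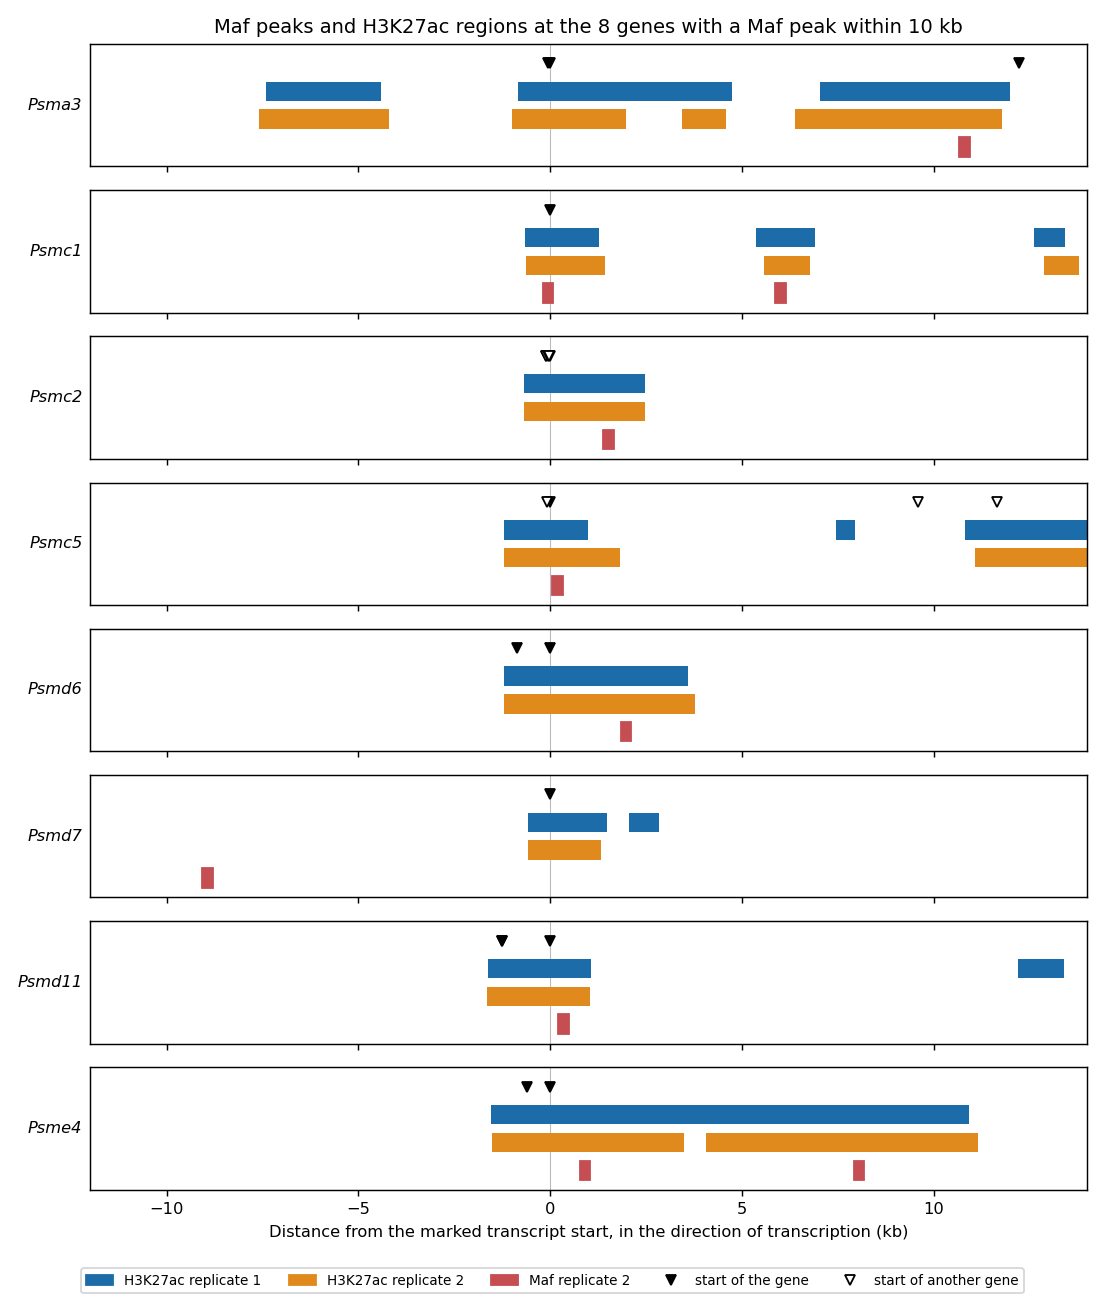
Maps of the 8 genes with a Maf peak within 10 kb, drawn to scale as distance in kb from the start with the most H3K27ac (0, horizontal axis) in the direction of transcription, clipped at 12 kb upstream and 14 kb downstream. Blue and orange bars are H3K27ac regions of replicates 1 and 2, red bars are Maf replicate 2 peaks, filled triangles are starts of the gene and open triangles starts of other genes. Of the 10 red bars, 9 lie under blue and orange bars, and that of Psmd7, upstream, does not.

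A further 8 genes had the nearest Maf peak between 10 and 50 kb, and for all 14 peaks at that distance from any of the 38 another gene had the nearest start. They were 4 alpha ring genes (Psma5 at 24501 bp, Psma1 at 21243 bp, Psma4 at 33217 bp and Psma6 at 48450 bp), 2 ATPases (Psmc3 at 16251 bp and Psmc6 at 21920 bp), the lid gene Psmd8 at 17420 bp and Psmb5 at 35554 bp. Psmb5, which carries the chymotrypsin-like activity, was thus the only gene of a cutting subunit with a peak within 50 kb, and that peak was at the start of Acin1. Psma5 had 4 peaks, at or beside Atxn7l2, Sypl2 and Sort1. The second Psmc3 peak was number 96 of the list, and it was in an intron of Spi1, which encodes the myeloid factor PU.1, 29892 bp away. These peaks therefore lie near proteasome genes without being nearest to them.

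The remaining 22 genes had no Maf peak within 50 kb. Over all 38 the median distance to the nearest peak was 62260 bp, compared with 75680 bp for genes marked in both samples and 122100 bp for all genes with a peak on their chromosome. In the non-catalytic beta ring the distances were 196314 bp (Psmb2), 237394 bp (Psmb4), 284691 bp (Psmb3) and 562173 bp (Psmb1), the highest of the 38. The catalytic Psmb6 (caspase-like) and Psmb7 (trypsin-like) were at 92783 and 129037 bp. Neighboring genes shared their nearest peak: Psmb8 and Psmb9 in the major histocompatibility complex, Psme1 and Psme2, and Psmb4 and Psmd4 were each nearest to 1 and the same peak, so their distances are not separate observations.

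The H3K27ac mark was at every proteasome promoter. All 38 genes had a region within 1 kb of a start in each of the 2 samples (100%, 90.7 to 100%), compared with 55.6% of all genes in both samples and 58.7% in either. At 10 and 50 kb all 38 were also marked, compared with 66.1% and 78.7%. The base of the start with the most H3K27ac was inside a region in both samples for 38 of 38, compared with 95.6% of 12105 marked genes, and the choice of that start favors this in both sets. Thus the mark was present at genes with no Maf peak nearby as at those with a peak. This holds for presence only, and region length was not compared between the 2 sets. Among the longest joined regions, those of Psme4 (12677 bp), Psma3 (5757 bp) and Psmd6 (4963 bp) were at genes with a Maf peak within 10 kb. That of Psme1 (8326 bp) was not. The other genes with a Maf peak within 10 kb (Psmc1, Psmc2, Psmc5, Psmd7 and Psmd11) had joined regions of 2058 to 3171 bp. The Psma3 peak lay outside the region of 5757 bp. The immunoproteasome genes Psmb8, Psmb9 and Psmb10, whose products replace the 3 cutting subunits in immune cells and after interferon, were marked too. Macrophage and leukocyte markers were marked in 8 of 8 in the same samples, with joined regions of 1210 to 15680 bp, and the cells in which the immunoproteasome genes carried the mark cannot be told apart.

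The regions at proteasome promoters were of ordinary length for marked genes. At the start with the most H3K27ac their median length was 2172 bp in replicate 1 (quartiles 1748 and 2642) and 2110 bp in replicate 2 (1852 and 2888), compared with 2089 and 2188 bp for genes marked in both samples. With the samples joined, H3K27ac covered a median of 93.38% of the 2 kb around the start, compared with 92.95%. By contrast, the 8 muscle fiber markers had joined regions of 8248 to 47650 bp, with a median of 15050 bp. The median was 9013 bp at fibroblast, 4796 bp at endothelial and 2059 bp at macrophage and leukocyte markers. Long regions were thus not limited to fiber markers. A Maf peak within 10 kb was at 6 of 8 fiber markers, beside 11.0% of all genes and 17.2% of genes marked in both samples. It was at 1 of 5 fibroblast, 0 of 6 endothelial and 1 of 8 macrophage and leukocyte markers. The study names Ckm, Myh4, Atp2a1 and Actn3, which are fiber markers here, among its loci of strongest Maf binding in these data. The share of fiber markers with a Maf peak was thus partly fixed by the choice of markers. Over the 38 genes only Psme4, in replicate 1, and Psme1, in replicate 2, had a region beyond 8248 bp in the separate lists.

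The replicates gave like lengths for most genes. The ratio of replicate 2 to replicate 1 was between 0.8 and 1.25 for 33 of 38, compared with 81.7% of 12105 marked genes, and the Spearman rho over the 38 genes was 0.926, as a description. Psme4 had the longest region in replicate 1 (12446 bp) but 4999 bp in replicate 2 (ratio 0.402). In replicate 2 a second region followed downstream after a gap, over the stretch that replicate 1 lists as 1 region. Psma3 likewise had 5599 bp and 2980 bp (ratio 0.532). The highest ratio was that of Psmc5, with 2180 and 3006 bp (1.38).

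Psme1, which with Psme2 encodes the interferon-induced PA28 activator, had a region of 8060 bp in replicate 1 and 8326 bp in replicate 2. It reached 6637 and 6751 bp upstream and covered a start of Fitm1, a lipid droplet gene, so its length is not that of Psme1 alone. Psmd6 had 4798 and 4963 bp, most of it downstream, over the Maf peak described above. At the other end stood Psmc4, the ATPase Rpt3, with 1090 and 1050 bp, the lowest of the 38 in both samples. Psmd14, the gene of the lid deubiquitinase, had 1450 and 1500 bp, and Psmb6 had 1456 and 1522 bp. In replicate 1 Psmb4 (1441 bp, and 1706 bp in replicate 2) was below both of them, and in replicate 2 Psmb8 (1464 bp, and 1577 bp in replicate 1) was, so the order next to Psmc4 changed between the samples.

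**Figure D4:**
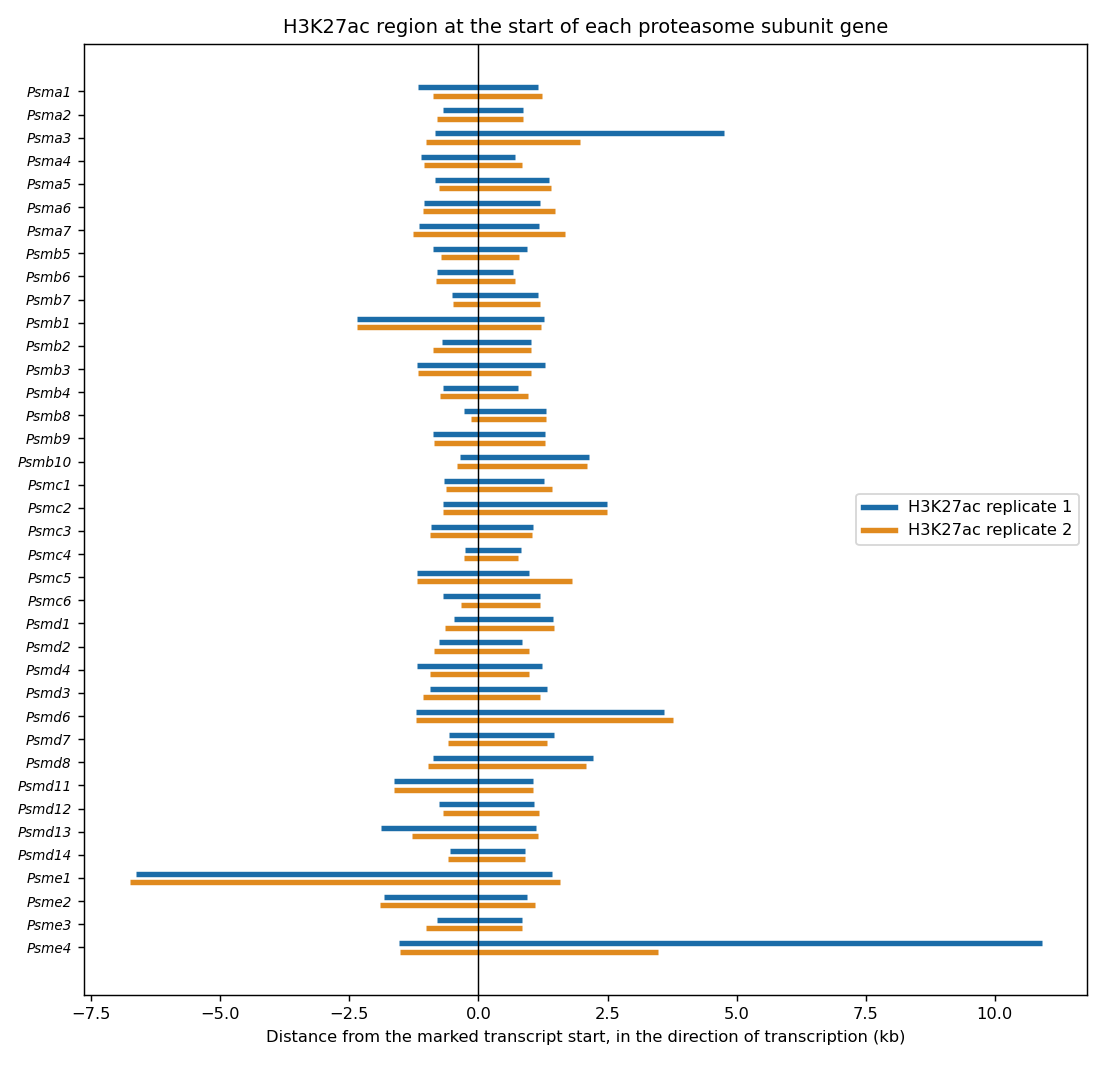
Extent of the H3K27ac region at the start of each of the 38 genes, as distance in kb from the start with the most H3K27ac (0, horizontal axis) in the direction of transcription, for replicate 1 (blue) and replicate 2 (orange). Bars cross 0 in both samples for all 38 genes; those of Psme4 (replicate 1) and Psma3 (replicate 1) extend downstream, and those of Psme1 extend upstream in both samples.

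Regions at proteasome genes reached farther into the gene than away from it, and so did those of other marked genes. The median reach was 1182 and 1192 bp downstream (replicates 1 and 2) against 864.5 and 877.5 bp upstream. For genes marked in both samples it was 1088 and 1127 bp downstream and 917 and 955 bp upstream. The region was longer downstream in both samples for 27 of 38 genes (71.1%), compared with 61.3% of 12105 marked genes. Upstream reach varied among the genes that share their promoter. Psmd13, beside the mitochondrial deacetylase gene Sirt3, reached 1887 and 1292 bp, whereas Psma2 reached 682 and 801 bp and Psmc2 690 and 682 bp. The reach of Psmb1, beside Tbp, was 2353 and 2344 bp, but from a start inside the gene (chr17:15498339). The 5′ end of Psmb1 lies at 15499751, so part of that reach is within the gene.

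A divergent protein-coding gene started within 1 kb of 9 of the 38 genes (23.7%), compared with 9.86% of all genes and 16.4% of genes marked in both samples. The pairs were Psmc2 with Dnajc2 (32 bp), Psmb9 with the peptide transporter gene Tap1 (38 bp), Psma2 with Mrpl32 (75 bp) and Psmc5 with Ftsj3 (75 bp). They also held Psma7 with Ss18l1 (76 bp), Psmd13 with Sirt3 (99 bp), Psma4 with AY074887 (106 bp), Psmb1 with Tbp (137 bp) and Psme2 with the ubiquitin ligase gene Rnf31 (595 bp). At these 9 promoters 1 region covers both genes, and it cannot be assigned to either. Of the 9, Psmc2 and Psmc5 had a Maf peak within 10 kb, beside 8 of all 38 genes and 17.2% of genes marked in both samples.

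The promoters themselves were read from RefSeq (GRCm38), with 250 bases before and 50 after the start, for 32 of the 38 genes. Psmb1, Psmb2, Psmb7, Psmc3, Psmd3 and Psmd7 were not matched. The antioxidant response element core TGACNNNGC was in 5 of 32 (15.6%, 5.28 to 32.8%), namely Psmb5, Psmb6, Psmc6, Psmd12 and Psme4, compared with 17.1% of the 9501 promoters of genes marked in both samples and 15.0% of all 16515. The Maf half-site TGCTGAC was in 0 of 32, compared with 4.48% and 4.90%. The motif with the widest gap to other promoters was the Ets core CCGGAAG, present in 12 of 32 (37.5%, 21.1 to 56.3%) against 20.2% of marked and 13.4% of all promoters. Its lower limit is close to the share of marked promoters, and the intervals are not adjusted for reading 10 motifs. The Ets core holds a CpG, and the median ratio of observed to expected CpG was 0.7722 in the 32 promoters, 0.7692 in those of marked genes and 0.5973 in all.

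Short stretches show these motifs where they lie mostly outside exons. For TGACNNNGC they are those of Psmb5 and Psmb6, the matches of the 5 genes nearest to the start among those outside exons. For the Ets core they are the match nearest to the start, among those upstream with at most 20 exon bases in the stretch, in 9 of the 12 genes. The matches of Psmc1, Psmd12 and Psmd13 lie in exons and are not printed. Capitals mark TGACNNNGC in Psmb5 and Psmb6, genes of cutting subunits, and the Ets core, or CTTCCGG on the other strand, in the rest, and the strand is that of the gene.
Psmb5 promoter (chr14:54618018-54618058, minus strand): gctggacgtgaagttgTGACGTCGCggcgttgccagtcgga
Psmb6 promoter (chr11:70525332-70525372, plus strand): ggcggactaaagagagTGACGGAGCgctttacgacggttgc
Psma6 promoter (chr12:55398676-55398716, plus strand): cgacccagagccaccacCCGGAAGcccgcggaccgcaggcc
Psmc2 promoter (chr5:21785174-21785214, plus strand): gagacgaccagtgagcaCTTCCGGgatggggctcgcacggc
Psmc6 promoter (chr14:45329707-45329747, plus strand): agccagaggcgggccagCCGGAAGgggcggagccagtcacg
Psmd2 promoter (chr16:20651609-20651649, plus strand): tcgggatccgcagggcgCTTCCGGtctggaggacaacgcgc
Psmd4 promoter (chr3:95042716-95042756, minus strand): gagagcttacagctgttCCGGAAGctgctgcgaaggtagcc
Psmd6 promoter (chr14:14120967-14121007, minus strand): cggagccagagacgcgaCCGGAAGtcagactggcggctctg
Psmd11 promoter (chr11:80428587-80428627, plus strand): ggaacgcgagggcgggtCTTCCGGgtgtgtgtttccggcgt
Psme3 promoter (chr11:101316089-101316129, plus strand): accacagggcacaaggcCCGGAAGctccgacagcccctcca
Psme4 promoter (chr11:30771705-30771745, plus strand): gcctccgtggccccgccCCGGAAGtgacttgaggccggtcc
The core began 47 bases before the RefSeq start in Psmb5 and 9 before it in Psmb6, where it ended at the base before the start. The Ets core began 11 bases before the start in Psmd11, 26 in Psmd2, 45 in Psmd6 and 53 in Psme4, and farther upstream in Psmc6 (100), Psme3 (107), Psmd4 (125) and Psma6 (132). In Psmc2 it began 84 bases before the first RefSeq start, and there was 1 more 24 bases before the second, under the Maf peak. Psma6 and Psme3 also held an Ets core beside the start, reaching into exon sequence.

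**Figure D5:**
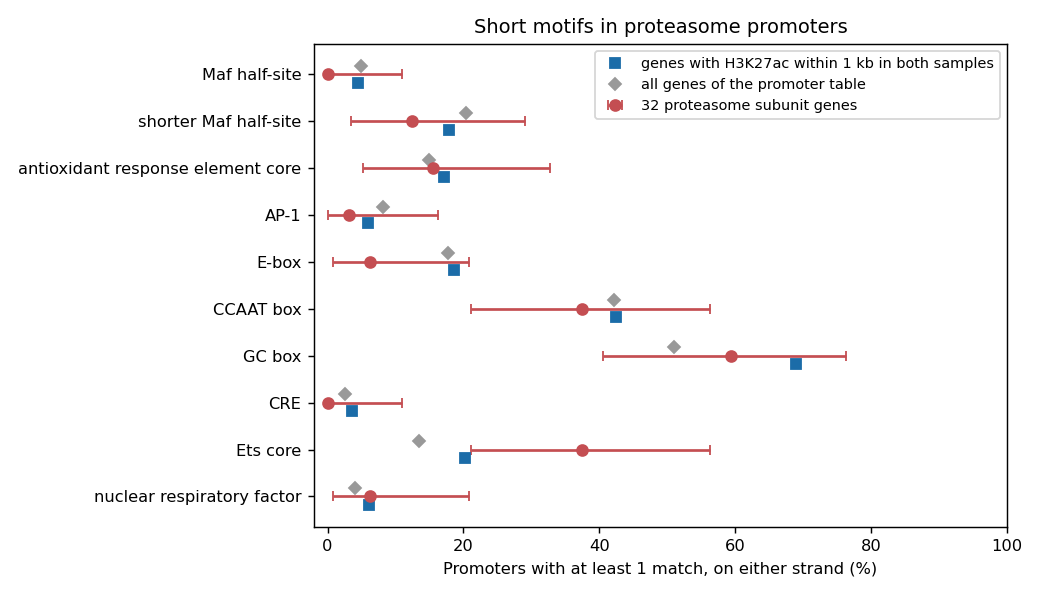
Share of promoters (%, horizontal axis) with at least 1 match to each of 10 motifs (vertical axis) on either strand, for 32 proteasome subunit genes (red points, bars are 95% Clopper-Pearson intervals), the 9501 genes marked in both samples (blue squares) and all 16515 genes of the promoter table (grey diamonds). The Ets core is the only motif of the 10 whose red bar (21.1 to 56.3%) lies wholly above both other symbols. Its lower end is close to the blue square (20.2%), and the bars are not adjusted for the number of motifs.

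The other motifs were at or below the share in marked promoters, with 1 exception, the nuclear respiratory factor site. The GC box GGGCGG was in 59.4% against 69.0%, the CCAAT box in 37.5% against 42.4%, and the shorter Maf half-site TGCTGA in 12.5% against 17.9%. The nuclear respiratory factor site GCATGCGC was in Psma2 and Psmc5 (6.25% against 6.08%), the E-box CAGCTG in Psma4 and Psmd4 (6.25% against 18.6%), the AP-1 site in Psmb5 (3.12% against 5.97%) and the CRE TGACGTCA in 0 against 3.61%. In the 200 bases around the centers of the 10 Maf peaks, TGCTGA was in 4, compared with 46.2% of all Maf peaks. TGCTGAC was in 1 (20.9%), and TGACNNNGC in 1 (19.4%). The Ets core was in 2 (2.35%), those of Psmc2 and over the Psmc1 start, and the AP-1 site in 2 (12.4%). The CCAAT box was in 3 (21.5%), the E-box in 1 (19.5%) and the GC box in 1 (11.9%). The CRE and the nuclear respiratory factor site were in 0 (0.51% and 0.583%). These counts are small and were not tested. A match is a description of letters and not a shown binding site.

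Other genes of the pathway were read in the same way. Of the assembly chaperones, which build the core and base, 0 of 8 had a Maf peak within 10 kb, compared with 11.0% of all genes. Of 7 further subunits and bound factors 2 did: Uchl5, a deubiquitinase of the 19S particle (0 bp, number 1119), and Ube3c, a ligase bound to the proteasome (5561 bp, number 5024). Of 18 genes for ubiquitin supply and delivery 2 did: Nfe2l1, the transcription factor of proteasome genes named above, with a peak over a start (chr11:96824008-96824288, number 783), and Ddi2, the protease that activates the Nfe2l1 protein, at 8038 bp (number 2256). Both peaks were in H3K27ac. These positions and distances are those of Maf replicate 2.

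Complexes of like build were read for comparison. The COP9 signalosome, which resembles the lid, had a Maf peak within 10 kb in 1 of 9 genes (Cops6, 5127 bp), the translation factor eIF3 in 1 of 13 (Eif3d, 0 bp) and the chaperonin, another ring-shaped complex, in 2 of 7 (Cct3, 0 bp, and Cct5, 5775 bp), beside 11.0% of all and 17.2% of marked genes. All genes of these 6 lists had H3K27ac within 1 kb in both samples, as the 38 did. The median joined region was 1894 bp in the COP9 signalosome, 1768 bp in eIF3 and 2318 bp in the chaperonin, beside 2216 bp in the proteasome genes.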

How the data were processed

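Per the labels and the methods of the study, nuclei were crosslinked, chromatin was sheared and libraries were made for Maf, H3K27ac and input. The submitters' processing notes name bcl2fastq 2.17, FastQC, Bowtie2 2.3.2, Picard 2.10.3, HOMER and the build mm10 (GRCm38). The authors called peaks in each sample, and apart from a false discovery rate that the study gives for its number of Maf peaks, the settings of the caller are not given in the sources used here. The deposited lists give start and end positions and a score column that is 1 on every line, so no strength or depth could be used.

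From the lists on, positions were counted from 1, both lists of a target were joined, and the distance from the nearest edge of a region to any protein-coding transcript start of a gene (54355 starts, GENCODE M21) was taken, with 1 shared base as overlap. Windows were 1, 10 and 50 kb. The start with the highest H3K27ac coverage of 1 kb to either side was used for region lengths, with the 5′-most in ties. Counts carry 95% Clopper-Pearson intervals, and no test was made, since the members and lists were chosen with earlier results of these data known. Named genes were all members with a Maf peak within 10 kb, those with a peak between 10 and 50 kb by distance, the longest and shortest regions, divergent pairs, and genes of the other lists with a Maf peak within 10 kb. Motifs were sought on both strands. Of the listed assembly chaperones 8 of 9, and of the chaperonin genes 7 of 8, were among the protein-coding names. Functions for distances were tested on simulated data. Python 3.11.15, numpy 2.4.6, SciPy 1.17.1, pysam 0.24.0 and matplotlib 3.10.9 were used. Alternatives were the samples taken singly, shared peaks only, other sets of starts, distances to centers and the first part of each list.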

Additional observations from a re-analysis of the deposited data

How the results depend on the processing

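Among the recomputed values 36 stayed within the limits set and 12 moved. The limits were not alike across measures. A count of 34 in place of 38 stayed, whereas a median coverage of 91.68% in place of 93.38% moved. These totals therefore do not show how far the values changed. The Maf counts rest on replicate 2. Leaving out each Maf replicate in turn gave 0 to 4 genes within 1 kb, 0 to 8 within 10 kb and 0 to 16 within 50 kb, and peaks present in both Maf lists gave 0 in each window. Within 1 kb the count was 2 with the 5′ end of the gene alone and 2 with basic transcripts alone, since Psmd11 and Psme4 have their peak near an alternative start. Within 50 kb it was 10 with only the earlier peaks of the Maf replicate 2 list, cut at its midpoint. Under the same cut 18.3% of all genes had a peak within 50 kb, beside 29.7% with the whole list. With RefSeq starts, chosen after seeing the data and covering 32 genes, the counts were 3, 6 and 14. Of all genes with RefSeq starts, 4.74%, 10.1% and 28.4% had a peak within 1, 10 and 50 kb. The RefSeq genes within 1 kb were Psmc1, Psmc2 and Psmc5. Psmc2 came in at 0 bp, whereas Psmd11 (1481 bp) and Psme4 (1315 bp) were beyond 1 kb. The median H3K27ac region length, 2216 bp joined, was 2110 to 2172 bp when each H3K27ac replicate was left out, and the median coverage, 93.38% joined, was 91.68 to 92.68%. With the 5′ end alone the coverage was 90.33%. H3K27ac within 1 kb held for 38 genes under each alternative except the distance to the region center, with 34. By that distance 50.2% of all genes were marked. No paired analysis was possible because the results come from counts of positions with no test. The lists carry no read depth, so a gene without a peak may have had too few reads for a call.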
